A study of Mus musculus with 96 samples.

Results

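The comparison described here asks how mouse myoblasts respond to a complex I inhibitor when NADH of the mitochondrial matrix can still be oxidized by another enzyme. Its members are 6 of the 96 RNA-seq samples of the series: 3 samples of C2C12 myoblasts that express mitoLbNOX and were treated with piericidin, and 3 samples of the same cells treated with DMSO, the solvent. Within the comparison they were taken by their sample labels, and the comparison itself was chosen with earlier results of these data known. C2C12 is an immortalized mouse myoblast cell line.

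Complex I of the respiratory chain takes electrons from NADH of the mitochondrial matrix and passes them to coenzyme Q, and piericidin blocks it at the coenzyme Q site. NADH then accumulates, first in the matrix and, through the shuttles that carry reducing equivalents across the inner membrane, in the cytosol. LbNOX is a bacterial NADH oxidase that turns NADH and oxygen into NAD+ and water without pumping protons, and mitoLbNOX is the same enzyme with a signal that sends it to the matrix. In myoblasts, block of the respiratory chain is known to raise the integrated stress response (ISR), in which phosphorylation of the initiation factor eIF2α slows translation and favours the synthesis of the transcription factor ATF4. ATF4 and its partners then raise genes of amino acid synthesis and transport, tRNA charging and stress signalling.

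Both groups were kept in 300 ng/ml doxycycline, which switches on the transgene from an inducible promoter carried by a lentiviral insertion. Piericidin was given at 0.5 µM and both treatments lasted 10 hr, in medium with glucose and without pyruvate or uridine. For reference, the same 2 treatments were read in control cells that express luciferase (3 samples each), in cells that express LbNOX, which has no mitochondrial signal (3 each), and in cells that express NDI1, a yeast NADH dehydrogenase that piericidin does not block (2 each). Every line compared thus carried an induced transgene and doxycycline, and each transgene was read in 1 line, so line and transgene cannot be told apart. Whether a line is a single clone is not given in the sources used here. The statistical model also held samples of these lines under antimycin (control, LbNOX and mitoLbNOX cells) or oligomycin (control and LbNOX cells). They were treated for 10 hr, added to the estimate of spread and were not compared here. No label ties the replicates to separate cultures or days, and p-values then measure only the spread between these samples.

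The 6 samples held between 10350994 and 13487290 estimated counts each, and the 22 samples of the 4 lines between 8449096 and 14960910. The LbNOX sequence had between 19533 and 24020 counts in the 6 mitoLbNOX samples, against 6696 to 13457 in LbNOX cells, and luciferase and NDI1 had 0. Myoblast markers were present, with all 7 past the count filter, and their summed normalised read count was 66670 to 71830 under DMSO and 63250 to 63960 under piericidin. Of 12 myotube markers 2 passed, Acta1 and Mylpf, and Myog did not exceed 5.28 normalised counts. Each label carries a code of a letter and a number, taken to be the position on a 96-well plate and called well position, and the labels do not say which plate or step it refers to. By these codes 2 of the 3 DMSO samples lay in the outer ring and the other DMSO sample and all 3 piericidin samples lay inside, so position partly moves with the treatment. The same holds in the other lines: all 3 DMSO samples of control cells lay in the outer ring and 2 of their 3 piericidin samples inside, 2 of 3 DMSO samples of LbNOX cells lay outside and 2 of 3 piericidin samples inside, and in NDI1 cells both DMSO samples lay outside and both piericidin samples inside. RNA came from whole cultures, where fewer cells of a type and less RNA per cell cannot be told apart.

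Promoter sequences are shown for members of the 2 gene groups described most closely, the ISR with its amino acid genes and the ER chaperones, around known motifs of the factors that act on them. Sequences are from RefSeq on GRCm38.p6, 5′ to 3′ on the strand of the gene, with up to 40 bases on each side and ending before the transcription start of the RefSeq entry, which can lie inside the Ensembl span that is printed for a gene, as at Vldlr. The composite element of ATF and C/EBP factors, through which ATF4 acts, was searched as TGATGCAA on both strands, and capitals mark each match. In 4 genes that rose with piericidin in mitoLbNOX cells the windows read as follows.
Vldlr (chr19:27216780-27216867, plus strand): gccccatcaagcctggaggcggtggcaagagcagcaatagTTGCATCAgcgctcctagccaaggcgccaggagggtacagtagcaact
Chac1 (chr2:119351009-119351096, plus strand): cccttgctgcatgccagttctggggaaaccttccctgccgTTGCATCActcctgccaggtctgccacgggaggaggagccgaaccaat
Slc7a11 (chr3:50443614-50443719, minus strand, 2 matches): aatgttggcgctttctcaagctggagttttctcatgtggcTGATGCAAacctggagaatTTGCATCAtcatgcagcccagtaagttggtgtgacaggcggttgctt
Aars (chr8:111033690-111033777, plus strand): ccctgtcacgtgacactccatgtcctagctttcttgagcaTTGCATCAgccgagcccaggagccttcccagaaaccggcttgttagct

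The ER stress element, through which ATF6 and XBP1 raise chaperones of the endoplasmic reticulum (ER), was searched as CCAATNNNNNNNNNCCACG on both strands, and capitals again mark the match. Calr, Creld2 and Syvn1 fell in mitoLbNOX cells and Hspa5 did not pass the test.
Calr (chr8:84847035-84847133, minus strand): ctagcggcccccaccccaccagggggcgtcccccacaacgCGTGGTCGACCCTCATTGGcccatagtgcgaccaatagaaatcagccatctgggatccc
Creld2 (chr15:88819480-88819578, plus strand): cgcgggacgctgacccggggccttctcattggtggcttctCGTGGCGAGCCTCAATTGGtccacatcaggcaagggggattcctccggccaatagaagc
Syvn1 (chr19:6046492-6046575, plus strand): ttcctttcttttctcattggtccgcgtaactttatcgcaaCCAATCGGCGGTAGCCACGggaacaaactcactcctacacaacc
Hspa5 (chr2:34771985-34772083, plus strand): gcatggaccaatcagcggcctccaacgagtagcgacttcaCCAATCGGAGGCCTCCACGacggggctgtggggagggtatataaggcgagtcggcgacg

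Over promoters from 250 bases before to 50 after the start, TGATGCAA was in 279 of 27025 genes (1.03%) and in 62 of the 9024 tested genes with a promoter (0.687%). It was in 26 of 596 genes called higher in mitoLbNOX cells (4.36%) and in 1 of 464 called lower (0.216%). Among list members with a promoter it was in 7 of 18 ISR genes (Atf3, Avil, Chac1, Fgf21, Jdp2, Nupr1 and Vldlr) and in 4 of 13 tRNA synthetases (Aars, Iars, Tars and Yars). The looser form TGATGNAA, which includes the strict one, was in 4.51% of all genes, 2.57% of those tested, 8.56% of those called higher and 1.72% of those called lower. The ER stress element was in 37 genes (0.137%), of which 16 were tested (0.177%), and in 0 of the 596 genes called higher and 7 of the 464 called lower (1.51%). All of those 7 (Calr, Canx, Creld2, Dnajc3, Hsp90b1, Pdia6 and Syvn1) are on the list of ER chaperones, where 8 of 16 members with a promoter held it. A match describes the letters of a window and does not show binding.

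Piericidin still changed the transcriptome of mitoLbNOX cells, but with fewer and smaller changes than in control cells. Of 11978 genes tested with the quasi-likelihood test of edgeR at an adjusted p under 0.05, 1341 were called (11.2%), 763 higher (6.37%) and 578 lower (4.83%), and 2881 had an unadjusted p under 0.05. In control cells the same test called 3705 genes higher (30.9%) and 3685 lower (30.8%). At least 2-fold changes among called genes numbered 106 higher and 17 lower in mitoLbNOX cells against 1070 and 1376 in control cells. The median log2 fold change of the genes called in mitoLbNOX cells was 0.38 for those higher and -0.34 for those lower, so most were changes of well under 2-fold. Without regard to a test, all 3 piericidin samples lay above all 3 DMSO samples at 1789 genes (14.9%) and below them at 1839 (15.4%). With inner wells only, which sets 1 DMSO sample against 3 piericidin samples of mitoLbNOX cells, the test called 522 genes, 396 higher and 126 lower. That fit left out outer wells only from the 2 mitoLbNOX groups compared, and the other groups of the model kept theirs. The spread came from groups with more than 1 sample, and the lone DMSO sample was assumed to vary like them. A call lost in that fit is also a call made on fewer samples. The part of well position in the calls was not tested beyond this and the fit with position as a covariate, which called 1245 (825 higher and 420 lower).

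The genes with large changes in control cells were mostly shifted the same way in mitoLbNOX cells and by much less. The 1070 genes at least 2-fold higher in control cells had a median log2 fold change of 1.44 there, 0.39 in mitoLbNOX cells, 0.29 in LbNOX cells and 0.10 in NDI1 cells. The 1376 genes at least 2-fold lower in control cells had medians of -1.49, -0.24, -0.17 and -0.07 in the same order. Gene by gene, the log2 change in mitoLbNOX cells was a median of 25.2% of that in control cells (interquartile range 9.68% to 44.7%) for the first set and 15.0% (3.82% to 25.2%) for the second. Both sets were chosen by the control change, which enters the ratio. The difference between the 2 lines, tested as an interaction of line and treatment, was called at 5135 genes (42.9%). Called genes were largely of the same direction in both lines: of the 763 genes higher in mitoLbNOX cells, 665 were called higher in control cells, 69 were not called and 29 were called lower, and of the 578 lower ones, 429 were called lower, 92 were not called and 57 were called higher.

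**Figure D1:**
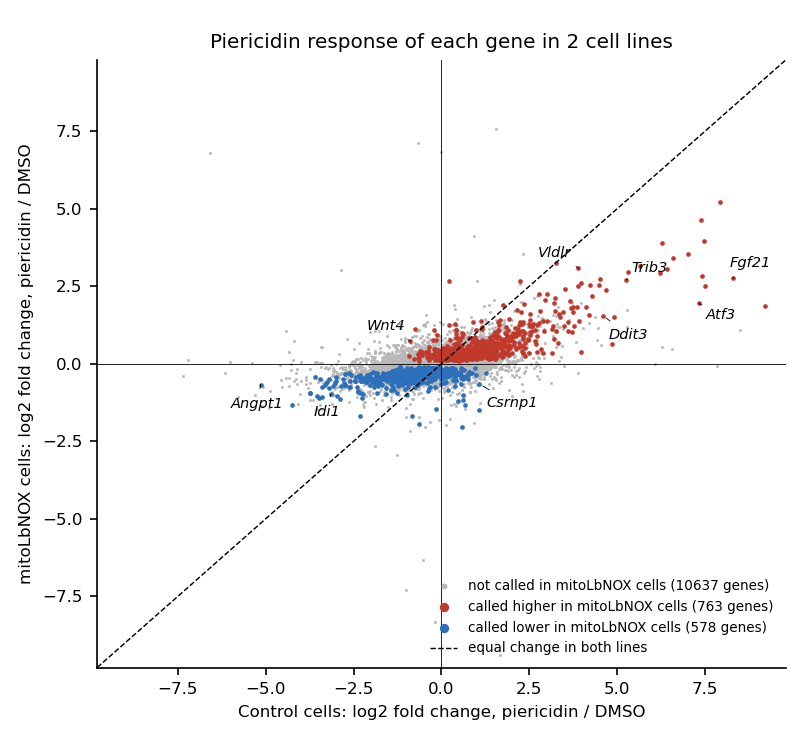
Log2 fold change of piericidin over DMSO for each of 11978 genes, control cells on the x axis and mitoLbNOX cells on the y axis, with genes called in mitoLbNOX cells in colour. The cloud lies flatter than the dashed line of equal change: Ddit3, at 4.60 in control cells, is at 1.55 in mitoLbNOX cells, and Angpt1, at -5.15, is at -0.67. The grey points far from 0 on the y axis were not called.

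Genes of the ISR rose in mitoLbNOX cells. Of 19 tested members of a list of ISR factors and effectors 18 were called higher and 0 lower, with a median log2 fold change of 1.37, against -0.002 over all genes tested. In control cells the count was also 18 of 19, but the median was 3.76. The response was smaller in mitoLbNOX than in control cells at 17 of the 19 genes by the interaction test of edgeR. Jdp2, a repressor of the AP-1 family, did not pass the test in either line (0.02 in mitoLbNOX cells).

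Atf4, the gene of the central transcription factor (ENSMUSG00000042406, GRCm38 chr15:80255184-80257541, plus strand), had normalised read counts of 2528, 2633 and 2394 under DMSO and 5011, 5014 and 4980 under piericidin. The groups did not overlap and the piericidin samples lay closer together than the DMSO samples. The rise was 1.99-fold ± 0.0076 (SD of the piericidin samples over the DMSO mean, n = 3) and its log2 fold change was 0.99 ± 0.03 (SE, adjusted p = 1.41e-20), against 2.39 in control cells. Ddit3 (ENSMUSG00000025408, chr10:127290774-127296288, plus strand), which encodes the stress factor CHOP, had 189, 184 and 211 counts under DMSO and 560, 581 and 565 under piericidin. It rose 2.92-fold ± 0.056 in mitoLbNOX cells and 24.2-fold ± 0.24 in control cells, where the DMSO samples held 179, 160 and 145 counts and the piericidin samples 3870, 3945 and 3928. All 3 piericidin samples of mitoLbNOX cells thus stood between the DMSO and the piericidin samples of control cells.

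Several effectors rose by more than Atf4 and Ddit3. Vldlr (ENSMUSG00000024924, chr19:27216484-27254231, plus strand), a receptor that takes up lipoproteins and whose promoter window is printed above, had 20.8, 15.5 and 17.9 counts under DMSO and 164, 145 and 156 under piericidin. It rose 8.58-fold ± 0.54 (log2 fold change 3.09 ± 0.18, adjusted p = 4.76e-14) and reached 15.3-fold ± 1.2 in control cells, so its log2 change kept most of its size. Trib3 (ENSMUSG00000032715, chr2:152337422-152344032, minus strand), a pseudokinase that binds ATF4, had 171, 185 and 171 counts under DMSO and 1091, 1203 and 1138 under piericidin, 6.52-fold ± 0.32. Chac1, which breaks down glutathione, went from 266, 230 and 244 to 776, 788 and 807 counts. In each of these 3 genes the 2 groups were far apart and the 3 samples of a group were close together.

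Other members differed widely in how much of the control response was seen. Eif4ebp1, a repressor of cap-dependent translation, rose 2.26-fold ± 0.015 against 3.61-fold ± 0.022 in control cells, and Sesn2, a leucine sensor that restrains mTORC1, 2.41-fold ± 0.23 against 5.62-fold ± 0.41. Gdf15, a secreted stress hormone, rose 2.82-fold ± 0.32 against 30.4-fold ± 1.8. At the other end, Ppp1r15a, which brings a phosphatase to eIF2α, had 198, 245 and 222 counts under DMSO and 322, 354 and 358 under piericidin, a rise of 1.56-fold ± 0.089 against 29.1-fold ± 0.24 in control cells. The difference at Ppp1r15a was -4.21 ± 0.14 on the log2 scale (SE, adjusted p = 9.63e-21). The remaining 7 members that rose were Avil, Stc2, Nfil3, Atf5, Ddit4, Cebpg and Nupr1, with log2 fold changes between 1.04 and 3.55. The highest, Avil, was near 0 counts under DMSO, and its value ran from 3.07 to 4.20 over the fits that left out 1 sample. Ddit4 lost its call with well position as a covariate (adjusted p = 0.064), and Atf5, Nfil3 and Ddit4 lost theirs with inner wells only (0.194, 0.528 and 0.324), where 15 of the 19 ISR genes were called. Atf3, a stress-induced factor, was at 15.37, 12.1 and 9.93 counts under DMSO and 48.05, 46.02 and 53.2 under piericidin in mitoLbNOX cells, and its log2 fold change was 1.95 against 7.33 in control cells. Fgf21, a hormone of metabolic stress, was near the limit of detection in DMSO, at 8.46, 0 and 0 counts, and at 19.04, 24.1 and 22.02 under piericidin, while control cells reached 376, 421 and 411. Without the first DMSO sample of mitoLbNOX cells, the only one of them with counts, the difference at Fgf21 was -0.81 on the log2 scale (adjusted p = 0.719).

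**Figure D2:**
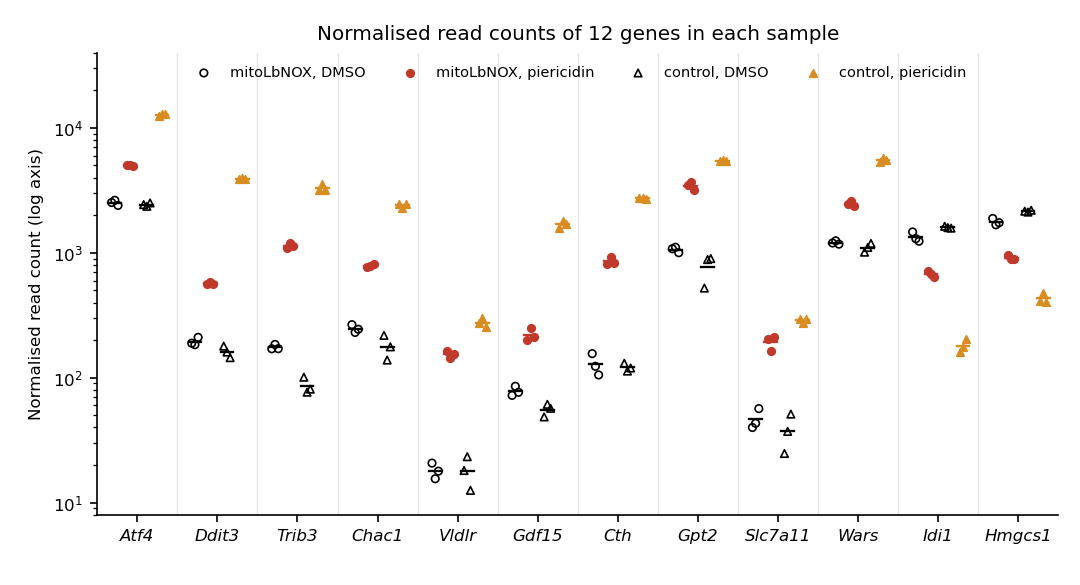
Normalised read counts on a log axis of 12 genes in each of 12 samples, with circles for mitoLbNOX cells and triangles for control cells, open symbols for DMSO, filled symbols for piericidin and short lines for group means. For the 10 genes that rose, the filled circles lie between the DMSO samples and the filled triangles, and for Idi1 and Hmgcs1, which fell, the order is turned around.

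Amino acid and one-carbon synthesis genes rose as well. Of 20 tested genes 14 were called higher and 1 lower, with a median log2 fold change of 0.75 against 1.61 in control cells. Cth, which makes cysteine from cystathionine (ENSMUSG00000028179, chr3:157894248-157925077, minus strand), had 156, 124 and 105 counts under DMSO and 810, 924 and 828 under piericidin, a rise of 6.66-fold ± 0.47 (log2 fold change 2.73 ± 0.10, adjusted p = 1.31e-19). Gpt2, the mitochondrial alanine transaminase, went from 1078, 1108 and 1002 to 3466, 3703 and 3196 counts, 3.25-fold ± 0.24. In the serine and glycine branch Phgdh, Psat1 and Psph, the 3 steps of serine synthesis, rose 1.51-fold ± 0.013, 1.63-fold ± 0.055 and 2.30-fold ± 0.018, and the mitochondrial folate enzymes Shmt2, Mthfd2 and Aldh1l2 rose 1.78-fold ± 0.093, 1.98-fold ± 0.11 and 3.20-fold ± 0.068. Their cytosolic counterparts Shmt1 and Mthfd1 had log2 fold changes of 0.09 and 0.15 and did not pass the test, though Mthfd1 passed with well position as a covariate (0.22, adjusted p = 0.0121). Asns, asparagine synthetase, had 2207, 2014 and 1994 counts under DMSO and 4260, 4460 and 4307 under piericidin, 2.10-fold ± 0.051, with a log2 fold change of 1.07 against 2.17 in control cells. In proline synthesis Pycr1 rose 2.67-fold ± 0.19 and its difference from control cells, -0.26 ± 0.12 on the log2 scale, did not pass the test (adjusted p = 0.0872). Glul, glutamine synthetase, was the member that fell, to 70.00% ± 4.0 of DMSO.

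Amino acid transporters followed, with 10 of 15 called higher, 1 lower and a median of 0.68 against 1.70 in control cells. Slc7a11, the cystine importer with 2 matches in its promoter window, had 39.97, 43.2 and 56.6 counts under DMSO and 206, 165 and 212 under piericidin, 4.17-fold ± 0.55. Slc3a2 and Slc7a5, which together form the exchanger for leucine, rose 2.10-fold ± 0.030 and 2.47-fold ± 0.25, and the glycine transporter Slc6a9 rose 3.28-fold ± 0.21. Slc38a2, a neutral amino acid transporter, was called lower at -0.14 ± 0.05 (adjusted p = 0.0411), and this call was lost when any 1 of 5 of the 6 samples was left out, all but the third DMSO sample, with log2 fold changes of -0.18 to -0.11 over the 6 such fits and -0.05 (adjusted p = 0.792) with inner wells only. It was lost with well position as a covariate too (0.176).

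Among cytosolic tRNA synthetases, which load amino acids onto tRNA, 15 of 20 were called higher and 0 lower, with a median of 0.65 against 1.42 in control cells. Wars was the highest of those called, at 1198, 1247 and 1173 counts under DMSO and 2469, 2581 and 2383 under piericidin, 2.05-fold ± 0.082 (log2 fold change 1.04 ± 0.06, adjusted p = 3.91e-14), followed by Sars at 1.98-fold ± 0.068 and Aars at 1.92-fold ± 0.0069. The 5 that were not called were Dars, Farsa, Kars, Qars and Vars, and the log2 fold changes of the first 4 lay between -0.09 and 0.10. Vars had 1391, 1119 and 2900 counts under DMSO and 3503, 2870 and 3622 under piericidin, and the third DMSO sample stood with the piericidin samples. Over the 22 samples of the 4 lines, Vars was at 649.8 to 1653 counts in the 11 outer wells and 1711 to 3945 in the 11 inner ones, whatever the treatment.

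Cholesterol synthesis and uptake fell. Of 25 tested genes 21 were called lower and 0 higher, with a median log2 fold change of -0.57, against -1.56 and 25 called lower in control cells. The response was weaker than in control cells at 22 of the 25 genes by the interaction test and stronger at 1, Msmo1 (-0.61 against -0.40), a C4-methylsterol oxidase. Idi1 (ENSMUSG00000058258, chr13:8885501-8892451, plus strand), which isomerizes the isoprenoid unit, had 1469, 1297 and 1238 counts under DMSO and 711, 673 and 639 under piericidin, 50.5% ± 2.7 of DMSO (log2 fold change -0.98 ± 0.07, adjusted p = 1.16e-11). In control cells it fell to 11.2% ± 1.4. Hmgcs1, which makes HMG-CoA, went from 1883, 1676 and 1742 to 964, 884 and 896 counts, 51.8% ± 2.4 of DMSO, and Mvd and Insig1 fell to 50.7% ± 7.0 and 51.7% ± 8.3. Srebf2, the transcription factor of the pathway, was itself lower at 75.7% ± 4.8. Of the members that did not pass the test, Mvk, Tm7sf2 and Ebp had log2 fold changes between -0.21 and -0.11.

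In fatty acid synthesis 6 of 12 genes were called lower and 0 higher, with a median of -0.20. The count was 5 with well position as a covariate, where Acly lost its call (adjusted p = 0.0665), and 3 with inner wells only, where Acly, Fasn and Fads2 did (0.419, 0.06 and 0.0641). The largest falls were at Elovl6, an elongase, at 59.1% ± 7.8 of DMSO, and at Scd2, a stearoyl-CoA desaturase, which went from 5249, 5411 and 5002 to 3305, 3035 and 3040 counts, 59.9% ± 3.0. Scd2 fell to 9.54% ± 0.46 in control cells. Its close relative Scd1 had a log2 fold change of -0.19 and did not pass the test (adjusted p = 0.108), and reads that the 2 genes share could be split between them.

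The direction of ER chaperones in mitoLbNOX cells differed from that in control cells. In mitoLbNOX cells 10 of 18 were called lower and 1 higher, with a median log2 fold change of -0.27, and in control cells 5 were lower and 9 higher, with a median of 0.28, where 30.8% of all genes were called lower and 30.9% higher. In LbNOX cells 5 were called lower and 1 higher, with a median of -0.11. The interaction test called 12 of the 18 lower in mitoLbNOX than in control cells and 1 higher, against 21.4% and 21.5% of all genes. Calr, a calcium-binding chaperone, had 8640, 9127 and 8512 counts under DMSO and 6457, 6515 and 6443 under piericidin, 73.9% ± 0.44 of DMSO (log2 fold change -0.43 ± 0.03, adjusted p = 3.27e-11), while it was slightly higher in control cells (0.13, adjusted p = 0.00112). Manf, a secreted ER protein, fell to 74.2% ± 2.6 in mitoLbNOX cells and rose 1.56-fold ± 0.087 in control cells. Creld2, which helps disulfide exchange, fell in both lines, to 59.2% ± 0.45 and 51.9% ± 2.1. Hspa5, the chaperone BiP, had 7917, 7893 and 7125 counts under DMSO and 6981, 7147 and 7062 under piericidin in mitoLbNOX cells, with overlapping groups, and rose 4.17-fold ± 0.062 in control cells. Dnajb9 and Xbp1 were likewise not called in mitoLbNOX cells (-0.11 and -0.00) and at 2.80 and 2.55 in control cells. Herpud1, part of ER-associated degradation, was the only member called higher, from 1045, 1065 and 994 to 1740, 1804 and 1813 counts. Syvn1, a ubiquitin ligase of the same process, lost its call (-0.35, adjusted p = 0.0199) without the first DMSO, the third DMSO or the second piericidin sample, with adjusted p up to 0.114, and with inner wells only (0.0513). With inner wells only, 6 members of the list were called lower and 1 higher.

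**Figure D3:**
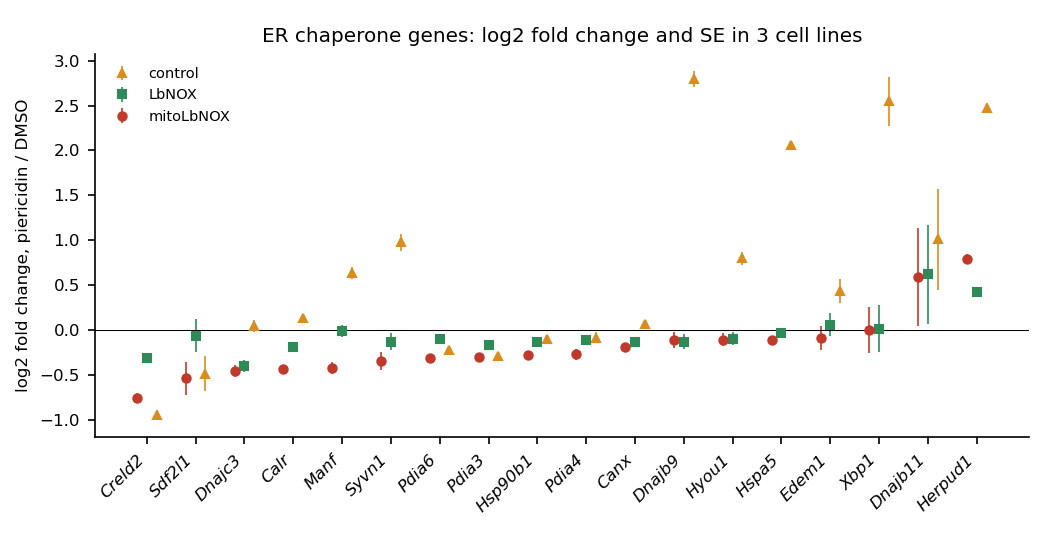
Log2 fold change of piericidin over DMSO (points) and its SE (bars) for 18 ER chaperone genes in mitoLbNOX, LbNOX and control cells, ordered by the value in mitoLbNOX cells. In mitoLbNOX cells 10 of the 18 genes were called lower, while in control cells 9 were called higher.

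Part of the cell cycle genes were called lower, by small amounts. Of 32 genes of G1/S and DNA replication 11 were called lower and 1 higher, with a median of -0.17 against -0.88 in control cells, where 30 were lower. Of 22 mitotic genes 13 were called lower and 0 higher, with a median of -0.22 against -0.38. Tk1, a thymidine kinase, had 2019, 2073 and 2050 counts under DMSO and 1648, 1617 and 1668 under piericidin, 80.3% ± 1.3 of DMSO against 16.1% ± 0.54 in control cells. The member called higher was Cdt1, which licenses replication origins, at 0.22 ± 0.07 (adjusted p = 0.0305), and this call was lost without the second or the third DMSO or the first or the third piericidin sample, with adjusted p up to 0.22, and with inner wells only (0.171). Ccne1, cyclin E1, fell to 80.1% ± 2.3 (adjusted p = 0.0139), a call lost without the first DMSO or the third piericidin sample (adjusted p = 0.0686 and 0.0689) and with inner wells only (0.259). Mki67, a marker of proliferating cells, was at 1102, 1117 and 1155 counts under DMSO and 749, 746 and 760 under piericidin, 66.8% ± 0.64 of DMSO, and its groups lay far apart relative to their spread. Cdkn1a, the cyclin-dependent kinase inhibitor p21, was at 0.14 (adjusted p = 0.0778) and rose 1.99-fold ± 0.037 in control cells. With inner wells only, 2 genes of each list were called lower, and leaving out 1 sample left 6 to 13 called lower for G1/S and 7 to 13 for mitosis. The lower counts came without the first or second DMSO sample or the third piericidin sample for G1/S (7, 6 and 7), and without the first or second DMSO or the first piericidin sample for mitosis (8, 7 and 8).

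Aurka, a mitotic kinase, moved against the control response: it fell to 82.4% ± 5.8 in mitoLbNOX cells and rose 1.34-fold ± 0.058 in control cells. Without the first piericidin sample its adjusted p was 0.0541, and with inner wells only 0.142.

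Ribosome biogenesis rose mildly, with 14 of 20 genes called higher, 0 lower and a median of 0.28, against 20 and 0.88 in control cells. Nop14, a factor of small-subunit assembly, rose 1.44-fold ± 0.064, and Ncl, nucleolin, 1.24-fold ± 0.020. Myc, a transcription factor that drives these genes, was at 711, 691 and 624 counts under DMSO and 920, 894 and 938 under piericidin, 1.36-fold ± 0.033. Among mitochondrial chaperones and proteases 5 of 12 were called higher and 0 lower (median 0.18 against 0.57). The matrix protease Lonp1 had 328, 361 and 385 counts under DMSO and 910, 856 and 1051 under piericidin, 2.62-fold ± 0.28, and the chaperone Hspa9 rose 1.62-fold ± 0.035. In the list of lysosome and autophagy genes 5 of 16 were called higher and 0 lower, led by Sqstm1, an autophagy receptor, at 1.74-fold ± 0.026.

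The genes closest to the block itself moved little. Of 36 nuclear genes of complex I subunits 0 were called in either direction by edgeR, with log2 fold changes between -0.10 and 0.23 and a median of 0.08, while in control cells 10 were called higher and 6 lower, no larger a share than the 30.9% and 30.8% of all genes there. Of 26 genes of the NADH shuttles and the TCA cycle 2 were called lower, Slc25a12, a carrier of the malate-aspartate shuttle, at 83.5% ± 1.9 of DMSO and Gpd1l, a glycerol 3-phosphate dehydrogenase, at 75.7% ± 12. That count is near the 4.83% of all genes called lower. Both calls were lost with well position as a covariate (adjusted p = 0.0963 for Slc25a12 and 0.0517 for Gpd1l) and with inner wells only (0.215 and 0.499), and the count of the list was 1 without the first piericidin sample and 0 without any 1 of the other 5. Among 13 mitochondrially encoded transcripts only mt-Nd2, a complex I subunit, was called (-0.33 ± 0.10, adjusted p = 0.026), and this call was lost without the first DMSO or the second or the third piericidin sample, with adjusted p of 0.105 to 0.202, with well position as a covariate (0.108) and with inner wells only (0.512).

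The remaining lists showed mixed or few changes in mitoLbNOX cells, where 6.37% of all genes were called higher and 4.83% lower, and counts of 1 or 2 genes in lists of 12 to 20 lie near those shares. Of 20 genes of glycolysis and lactate export 3 were called higher (Slc2a1, Hk2 and Pfkp) and 0 lower, and in control cells, where 30.9% of all genes were called higher and 30.8% lower, 5 were higher and 14 lower. Hk2, a hexokinase, rose 1.71-fold ± 0.14 and Slc2a1, the glucose importer GLUT1, 1.23-fold ± 0.054. Of 15 HIF targets 2 were called higher and 1 lower, and the 2, Ndrg1 at 2.98-fold ± 0.17 and Ero1l at 2.31-fold ± 0.024, rose in control cells too (4.20 and 3.49 on the log2 scale). Purine and pyrimidine synthesis had 2 of 18 called higher, NRF2 targets 4 of 12 higher and 1 lower, p53 targets 2 of 18 lower, and extracellular matrix and YAP targets 5 of 19 higher and 3 lower, led by Acta2, smooth muscle actin, at 1.47-fold ± 0.026. The list of the glucose-sensing factor MondoA holds targets and also Mlxip, the gene of MondoA, and Mlx, its partner. Of the 5 genes tested on this list 2 were called lower. Among them was Txnip, which restrains glucose uptake, with 29.98, 27.6 and 21.9 counts under DMSO and 18.1, 7.54 and 9.18 under piericidin, whose call was lost without the first DMSO or the second or the third piericidin sample (adjusted p of 0.0666, 0.104 and 0.0798), with well position as a covariate (0.0533) or with inner wells only (0.365). Of 15 immediate early and MYC genes 2 were called higher, Myc and Klf4, and 3 lower, Jun, Egr1 and Dusp6, and Klf4 and Egr1 lost their calls with inner wells only (adjusted p = 0.164 and 0.167). Of 7 myoblast markers 2 were called lower, and of the 2 myotube markers tested Acta1, skeletal actin, was called higher, from 188, 175 and 145 to 280, 282 and 347 counts. These moved with the treatment alongside the groups above, and their part in the results was not tested. Several of these counts changed when 1 sample was left out. Glycolysis genes had 1 higher call without the first DMSO sample and with inner wells only, where Slc2a1 and Pfkp lost theirs (adjusted p = 0.166 and 0.397), and 6 with well position as a covariate. Matrix and YAP targets had 1 lower call without the first or second DMSO or the first piericidin sample, and lysosome and autophagy genes, with 5 higher calls over all samples, had 3 without the third DMSO or the second piericidin sample. The 2 calls of purine and pyrimidine synthesis became 1 without the third DMSO or the second or the third piericidin sample, those of p53 targets 1 without the first DMSO or the third piericidin sample, and those of myoblast markers 1 without any 1 sample other than the third DMSO one. The lower call among HIF targets was lost without the second or the third DMSO or the second or the third piericidin sample, and the higher calls of immediate early and MYC genes became 1 without the second or the third DMSO or the first or second piericidin sample. With inner wells only, the lower calls of p53 targets, of the MondoA list and of myoblast markers were lost, and NRF2 targets had fewer higher calls.

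**Figure D4:**
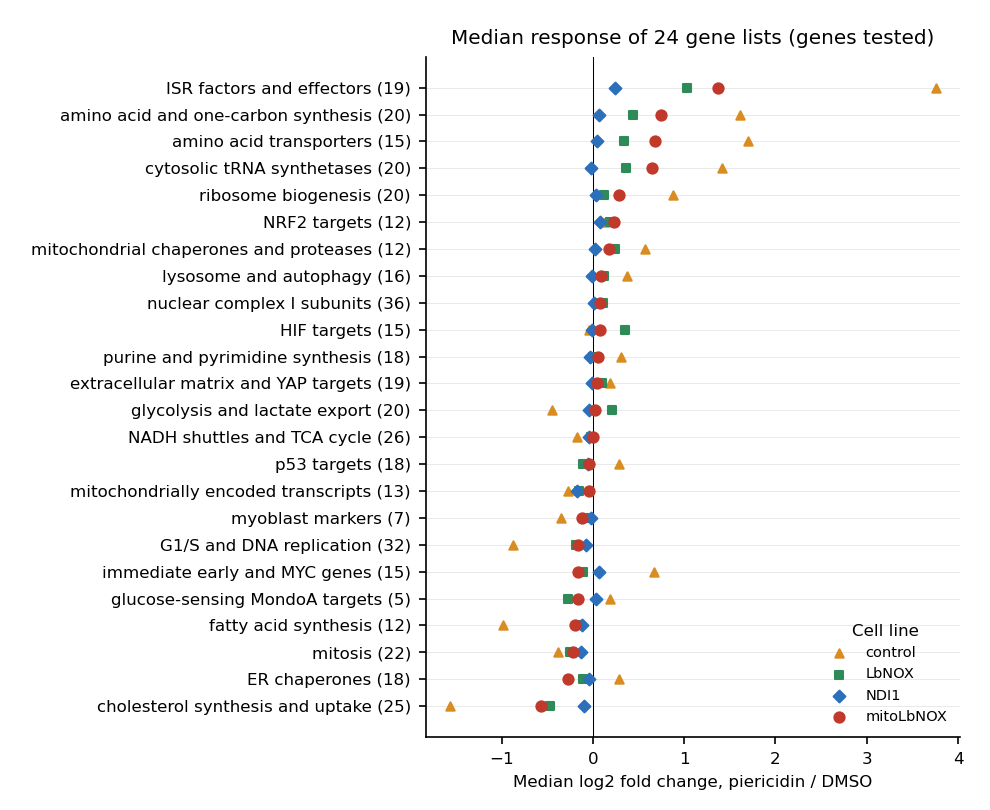
Median log2 fold change of piericidin over DMSO over the tested members of 24 gene lists, with the number tested in brackets, in 4 cell lines. Medians of mitoLbNOX cells run from -0.57 for cholesterol synthesis to 1.37 for ISR genes, and lie nearer to 0 than those of control cells for the lists at both ends.

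Outside the lists, the rule for named genes took the 12 largest rises and falls among called genes with a mean of at least 50 normalised counts and groups that did not overlap. Beside the genes already described, it named Cdsn, an adhesion protein of the skin, which went from 33.05, 45.8 and 23.8 to 269, 281 and 250 counts, 7.80-fold ± 0.46, and Acot2, a mitochondrial acyl-CoA thioesterase, at 5.84-fold ± 0.58. It also named Ank2, ankyrin-B, at 3.94-fold ± 0.36, Rab39b, a small GTPase, at 3.54-fold ± 0.34, and Gch1, the entry enzyme of tetrahydrobiopterin synthesis, at 3.53-fold ± 1.1, whose adjusted p of 0.000937 was 0.058 with inner wells only. Stbd1, a glycogen-binding protein, had 99.2, 65.6 and 239 counts under DMSO and 729, 430 and 916 under piericidin, and its DMSO sample from an inner well was the highest of the 3. Its adjusted p of 0.013 rose to 0.0727, 0.0832 and 0.0562 without the first DMSO, the second DMSO or the third piericidin sample, and with inner wells only it was 0.479.

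Among the falls were Pdk4, a kinase that shuts off pyruvate dehydrogenase, from 402, 412 and 351 to 177, 180 and 175 counts, 45.7% ± 0.67 of DMSO, and Ccl2, a chemokine, from 133, 124 and 130 to 62.5, 52.8 and 64.2, 46.4% ± 4.8. Both fell further in control cells, to 13.4% ± 3.3 and 8.91% ± 3.1. Ankle1, an endonuclease, was at 45.9% ± 6.0, Ctnnal1, alpha-catulin, at 46.9% ± 1.2, Mertk, a receptor kinase, at 48.5% ± 10 and Cyp39a1, an oxysterol hydroxylase, at 53.3% ± 4.1. The vasopressin receptor Avpr1a (51.2% ± 4.4) and Rnf150 (52.3% ± 14) each lost the call in 1 fit, without the first DMSO sample (adjusted p = 0.052) and without the third piericidin sample (adjusted p = 0.0525). With inner wells only the calls of Mertk, Avpr1a and Cyp39a1 were lost (adjusted p = 0.0636, 0.117 and 0.0809).

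A few genes moved in opposite directions in the 2 lines. By the rule, genes called higher in mitoLbNOX and lower in control cells, with groups that did not overlap, numbered 26, and those called lower in mitoLbNOX and higher in control cells numbered 52. Wnt4, a signalling protein, had 50.7, 58.7 and 60.6 counts under DMSO and 100.6, 87.5 and 92.7 under piericidin, a log2 fold change of 0.73 against -0.88 in control cells, and lost its call without the first DMSO sample (adjusted p = 0.0598). Myl9, a myosin light chain, went from 1480, 1445 and 1468 to 2009, 1891 and 1975 counts (0.42 against -0.37), and H19, an imprinted noncoding RNA, rose 1.32-fold ± 0.081 against -0.60 on the log2 scale. In the other direction Jun, an AP-1 factor, fell from 869, 921 and 905 to 638, 630 and 625 counts, 70.3% ± 0.75 of DMSO, and rose 1.69-fold ± 0.081 in control cells. Polr2a, the large subunit of RNA polymerase II, was at 68.00% ± 2.5 and Csrnp1, a nuclear protein, at 63.3% ± 4.7, with 0.37 and 1.07 on the log2 scale in control cells. Fbxo34, an F-box protein, and Per1, a clock gene, were also named, at -0.54 and -0.52, and so were Palm, paralemmin, and Mapk11, a p38 kinase, at 0.38 and 0.37. The call in mitoLbNOX cells was lost in 4, 4 and 5 of the 6 fits that left out 1 sample for Per1 (without the second or the third DMSO or the first or the third piericidin sample), Palm (without the first or second DMSO or the first or the third piericidin sample) and Mapk11 (every sample but the third piericidin one), with adjusted p up to 0.112, 0.151 and 0.207, and for Palm also with well position as a covariate (0.107). With inner wells only, the calls of Wnt4, H19, Palm, Mapk11, Csrnp1, Fbxo34 and Per1 were lost (adjusted p = 0.278, 0.14, 0.516, 0.414, 0.0575, 0.274 and 0.131), and those of Myl9, Jun and Polr2a were not. The changes of these 10 genes in mitoLbNOX cells were under 2-fold.

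The largest differences from control cells were at genes that changed strongly in control cells and less, or without passing the test, in mitoLbNOX cells. Angpt1, a ligand of the Tie2 receptor, was at 685, 636 and 621 counts under DMSO and 15.6, 12.8 and 25.8 under piericidin in control cells, and at 553, 547 and 496 and 300, 356 and 342 in mitoLbNOX cells, where it was called lower, at 62.6% ± 5.5 of DMSO, a call lost with inner wells only (adjusted p = 0.106). Gprin3, Trerf1, Rab7b and Apln were also named in this direction, with values in mitoLbNOX cells between -0.76 and 0.05 that did not pass the test. Prg4, the lubricant protein lubricin, was at 0.769, 5.18 and 6.95 counts under DMSO and 9.97, 3.02 and 4.59 under piericidin in mitoLbNOX cells, with overlapping groups, against 324, 391 and 469 in piericidin-treated control cells. Extl1, a glycosyltransferase, rose to 29.01, 36.2 and 36.7 counts from 0.769, 9.50 and 3.97, and Tpsab1, a tryptase, was at 0.61 (adjusted p = 0.134).

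LbNOX cells, whose enzyme carries no mitochondrial signal, also answered to piericidin, with 600 genes called higher (5.01%) and 463 lower (3.87%) on their own. Of the 763 genes higher and 578 lower in mitoLbNOX cells, 386 and 244 had the same call in LbNOX cells, where they made up that many of the 600 and 463 called. The 2 responses were compared directly by an interaction of line and treatment. The difference was called at 59 of 11978 genes (0.493%), 40 where the response was higher in mitoLbNOX cells (0.334%) and 19 where it was lower (0.159%), and 804 had an unadjusted p under 0.05. The count was 13 when only the samples of these 2 lines were fitted and 94 with well position as a covariate. A gene that was not called here is not shown to respond alike.

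ISR and amino acid genes were among the 40. The difference was called at 4 of 19 ISR genes (Atf4, Ddit3, Sesn2 and Vldlr), 3 of 20 amino acid and one-carbon synthesis genes (Phgdh, Psph and Aldh1l2), 2 of 15 transporters (Slc3a2 and Slc1a5) and 6 of 20 tRNA synthetases (Eprs, Gars, Lars, Rars, Wars and Yars), each higher in mitoLbNOX cells. With only the samples of these 2 lines fitted, 8 of the 40 kept their calls, and of the 15 genes named here these were Atf4, Psph, Slc3a2 and Eprs. Atf4 rose 1.99-fold ± 0.0076 in mitoLbNOX and 1.47-fold ± 0.035 in LbNOX cells, a difference of 0.44 ± 0.04 on the log2 scale (SE, adjusted p = 1.02e-06). Gtpbp2, a GTPase that rescues stalled ribosomes, had 71.5, 76.8 and 68.5 counts under DMSO and 159, 205 and 194 under piericidin in mitoLbNOX cells. In LbNOX cells it had 95.8, 93.7 and 88.4 and 94.4, 107 and 89.8, with overlapping groups, and the difference was 1.31 ± 0.16 (adjusted p = 2.64e-05). Sesn2 rose 2.41-fold ± 0.23 in mitoLbNOX and 1.32-fold ± 0.12 in LbNOX cells, and Vldlr 8.58-fold ± 0.54 and 3.30-fold ± 0.40. The calls of Sesn2 and Vldlr were among those lost (adjusted p = 0.0566 and 0.0795). Trib3, by comparison, was at 2.71 and 2.62, a difference of 0.09 ± 0.12 that did not pass the test. Gpr176 and Arid5a, also named by the rule, were called higher in mitoLbNOX cells (1.27 and 0.48), a call that Arid5a lost with inner wells only (adjusted p = 0.218). The difference from LbNOX cells at these genes lost its call in 9 and 7 of 12 fits that each left out 1 sample, with adjusted p up to 0.15 and 0.175.

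Genes of glycolysis and hypoxia were among the 19 that were lower in mitoLbNOX cells. The difference was called at 5 of 20 glycolysis genes (Aldoa, Tpi1, Pgam1, Ldha and Slc16a3) and 2 of 15 HIF targets (Bnip3 and P4ha1). With only the samples of these 2 lines fitted, 5 of the 19 kept their calls, among them Aldoa, Ldha, Slc16a3 and Bnip3, and Tpi1, Pgam1 and P4ha1 lost theirs (adjusted p = 0.0566, 0.0533 and 0.0545). Bnip3, a mitophagy receptor, had 329, 264 and 264 counts under DMSO and 598, 695 and 659 under piericidin in LbNOX cells. In mitoLbNOX cells it had 251, 212 and 199 and 205, 214 and 254, with overlapping groups. The difference was -1.16 ± 0.19 on the log2 scale (adjusted p = 0.00113). Slc16a3, a lactate exporter, was at 278, 264 and 278 counts in piericidin-treated LbNOX cells, from 127, 150 and 111, and at 85.2, 72.4 and 98.2, from 94.5, 110 and 86.4, in mitoLbNOX cells, but this difference (-1.26, adjusted p = 0.0246) lost its call in 7 of 12 fits that left out 1 sample, with adjusted p up to 0.108. Fam162a, a mitochondrial protein that HIF is known to raise, differed by -0.47 ± 0.09 (adjusted p = 0.0081), a call lost when only these 2 lines were fitted (adjusted p = 0.0624). Over the whole lists, the median response of glycolysis genes was 0.03 in mitoLbNOX, 0.21 in LbNOX and -0.45 in control cells, and that of HIF targets 0.08, 0.36 and -0.05. The proliferin genes Prl2c2 and Prl2c3 and the pseudogene Pgam1-ps2 were also lower in mitoLbNOX cells (-0.52, -0.66 and -0.49), and their close copies make the split of reads between them uncertain. The differences at Prl2c3 and Pgam1-ps2 lost their calls in 8 and 7 of those 12 fits, with adjusted p up to 0.175 and 0.106. The response of the ER chaperones Calr, Creld2 and Manf was lower in mitoLbNOX than in LbNOX cells (-0.24, -0.44 and -0.42), and that of Herpud1 higher (0.36), and the calls of all 4 were lost when only these 2 lines were fitted (adjusted p = 0.0545, 0.0844, 0.192 and 0.129).

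**Figure D5:**
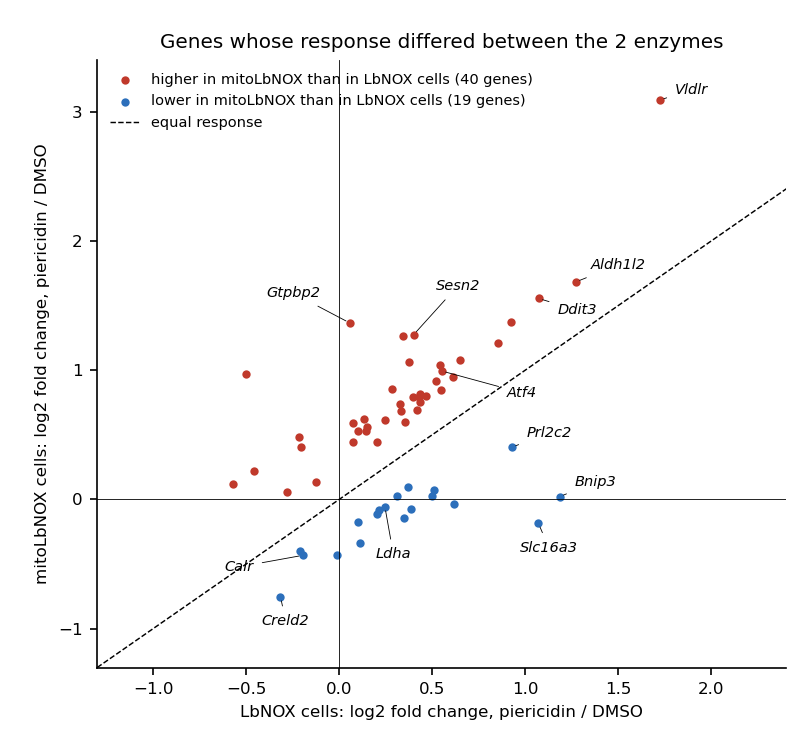
Log2 fold change of piericidin over DMSO in LbNOX cells (x axis) and mitoLbNOX cells (y axis) for the 59 genes whose response differed between these lines. Red points lie above the dashed line of equal response by construction, and the blue points Bnip3 and Slc16a3 lie near 0 in mitoLbNOX and above 1 in LbNOX cells.

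In NDI1 cells, which carry a working bypass of complex I, piericidin changed 1 gene (0.00835%) by the same test, with 1004 at an unadjusted p under 0.05 and 2 samples a group. With no count filter the number called was 538, and by the Wald test of DESeq2 it was 6. That gene, Eif4ebp1, had 1744 and 1721 counts under DMSO and 2056 and 2187 under piericidin. The response differed between mitoLbNOX and NDI1 cells at 286 genes (2.39%), and at 163 with only the groups compared. Since well position and treatment coincide in NDI1 cells, they cannot be told apart within that line. For Ddit3 the log2 fold change was 1.55 in mitoLbNOX and 0.20 in NDI1 cells, a difference of 1.35 ± 0.10 (SE, adjusted p = 8.59e-11), and for Idi1 -0.98 and -0.20, a difference of -0.78 ± 0.11 (adjusted p = 2.85e-05). The median of ISR genes was 0.24 in NDI1 cells and that of cholesterol genes -0.09.

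The lines also differed before treatment. Under DMSO, mitoLbNOX and control cells differed at 209 genes (1.74%), at 84 with only these 2 groups fitted and at 532 with no count filter. Trib3 was higher in mitoLbNOX cells, at 171, 185 and 171 counts against 101.0, 76.6 and 81.1, a log2 difference of 1.03 ± 0.10 (adjusted p = 2.48e-08). Chac1, Eif4ebp1, Psph, Aldh1l2, Gpt2 and Herpud1 were higher too, by 0.48, 0.19, 0.36, 0.56, 0.47 and 0.38. Ddit3 and Atf4 did not pass this test (0.27 and 0.05), and 4 cholesterol genes were lower, among them Hmgcs1 (-0.29) and Msmo1 (-0.30). These DMSO samples also enter the fold changes of piericidin, so the levels at rest and the responses of these genes share samples. In absolute terms, Trib3 with piericidin was at 1091, 1203 and 1138 normalised counts in mitoLbNOX cells and 3158, 3533 and 3204 in control cells.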

How the data were processed

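RNA was polyA-selected, made into Smart-seq2 libraries, which do not mark strand, and quantified by the authors with kallisto 0.44 against Ensembl mouse transcripts (GRCm38, named mm10 in the submitters' processing notes) and the transgenes, with tximport summing to genes. The deposited values are estimated counts per gene, written as whole numbers and used as they stand. The table held 54146 Ensembl genes and 4 transgenes. Depth was 8449096 to 14960910 counts over the 22 samples of the 4 lines, and it is given with the results for the 6 samples compared.

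Groups were taken from the sample labels. A gene was tested if some group had no replicate under 16 counts for it, which left 11978 genes, and TMM normalisation and the quasi-likelihood test of edgeR 4.0.16 (R 4.3.3) were run in 1 model over the 37 myoblast samples in 13 groups, with Benjamini-Hochberg adjusted p under 0.05 as a call. Differences between lines were interaction contrasts. The SE of a log2 fold change is its size over the square root of F. Normalised counts are counts divided by the size factors of the DESeq2 method, and fold changes with SD are the 3 piericidin samples over the DMSO mean.

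The comparison and the 25 gene lists of 456 symbols were chosen with earlier results of these data known. Named genes were the 12 of largest log2 fold change in each direction among called genes with a mean of at least 50 normalised counts and groups that did not overlap, the 6 largest differences between lines in each direction, and the 5 largest of opposite sign in each direction, plus members of the lists and marker genes of the study. Some genes that the rule named are not reported here. Replicate counts differed by more than sampling noise in the DMSO and piericidin groups of the 4 lines, which were the groups checked. Antisense or overlapping genes and close paralogs cannot be fully separated without strand. Alternatives were DESeq2 1.42.0 size factors and Wald test, no count filter, a replicate block, well position as a covariate, only the groups compared, and each sample left out. Inner wells only was added after seeing the data. Promoter sequences were from RefSeq (GRCm38.p6), matched by Ensembl gene ID or else by symbol or synonym. This gave 9024 RefSeq genes with a promoter for the 11978 genes tested. Other treatments, cell states and time points of the series were not analysed here.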

Additional observations from a re-analysis of the deposited data

Results flagged for a closer look

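The response to piericidin differed between cell lines by the interaction test of edgeR, which is what brought these results here. Groups of 3 are too small for a test of single samples. The difference was called at 5135 genes between mitoLbNOX and control cells, 59 between mitoLbNOX and LbNOX cells and 286 between mitoLbNOX and NDI1 cells.

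Among genes lost in control cells and less so or not in mitoLbNOX cells, the log2 difference (mitoLbNOX minus control) was 4.475 for Angpt1, 4.062 for Gprin3, 3.97 for Trerf1, 3.782 for Rab7b and 3.59 for Apln. Among genes gained in control cells and less so or not in mitoLbNOX cells it was -6.073 for Prg4, -5.539 for Fgf21, -5.389 for Atf3, -4.58 for Extl1, -4.212 for Ppp1r15a and -3.921 for Tpsab1. The value for Fgf21 depends on the first DMSO sample of mitoLbNOX cells and was -0.81 (adjusted p = 0.719) without it. The other DMSO samples of mitoLbNOX cells held no counts of Fgf21, so that fold change is taken over an empty baseline.

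Against LbNOX cells, the response of mitoLbNOX cells was higher by 1.366 on the log2 scale at Vldlr, 1.31 at Gtpbp2, 0.922 at Gpr176, 0.874 at Sesn2 and 0.694 at Arid5a. It differed by -1.256 at Slc16a3, -1.163 at Bnip3, -0.655 at Prl2c3, -0.524 at Prl2c2, -0.49 at Pgam1-ps2 and -0.473 at Fam162a. The differences at Gpr176, Arid5a, Slc16a3, Prl2c3 and Pgam1-ps2 each lost the call in at least 7 of the 12 fits that left out 1 sample.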

How the results depend on the processing

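Under every alternative the 1341 genes called in mitoLbNOX cells kept their direction. The number of genes called was 1293 with DESeq2 size factors, 1354 with the Wald test of DESeq2, 1326 with no count filter, 1245 with well position as a covariate, 1200 with only the groups compared and 940 to 1157 when 1 sample was left out. Of the 1341 calls, 95.6%, 93.5%, 64.4%, 80.0% and 74.9% were kept in the first 5 of these, and 67.4% to 76.1% when 1 sample was left out. With inner wells only, an alternative chosen after seeing the data that leaves 1 DMSO and 3 piericidin samples of mitoLbNOX cells, 522 genes were called, and 36.8% of the 1341 were kept. Higher calls were 56.9% of all, against 67.9% with no filter, 66.3% with well position as a covariate and 75.9% with inner wells only. The cause of these shifts was not tested.

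With only the groups compared, a fit on fewer samples, the counts were 517 for LbNOX cells, 13 for the difference from LbNOX cells (where Vldlr, Sesn2 and Fam162a lost their calls), 0 for NDI1 cells, 163 for the difference from NDI1 cells and 84 for mitoLbNOX against control cells under DMSO. With no filter, the difference from LbNOX cells was called at 125 genes, piericidin in NDI1 cells at 538 and mitoLbNOX against control cells under DMSO at 532. The difference from LbNOX cells was called at 94 genes with well position as a covariate, where piericidin against DMSO in control myoblasts was called at 7147 genes and the difference of the piericidin response, mitoLbNOX minus control, at 5326, and NDI1 cells had 6 calls by the Wald test of DESeq2. Leaving out 1 sample gave 0 to 1 calls in NDI1 cells and 175 to 255 for the difference from NDI1 cells. Bnip3 in mitoLbNOX cells, at 0.02 and not called, was -0.0092, -0.0440 and -0.0719 without the second DMSO, the third DMSO or the third piericidin sample, within a range of -0.0719 to 0.1264 over the samples left out. In mitoLbNOX cells the calls of Cdt1, Syvn1, Txnip, Palm, Per1, Wnt4, Mapk11 and Slc38a2 were lost with no filter, where Vars was called, and those of Cdt1, Csrnp1, Fgf21, Syvn1, Txnip, mt-Nd2, Mapk11 and Slc38a2 with only the groups compared. Of 116 gene values 79 stayed on the same side of the threshold and in the same direction in every alternative.

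Replicate numbers were not taken as pairs, since not every pair correlated above 0.1. Deviations of same-numbered DMSO and piericidin samples of mitoLbNOX cells from their group means correlated at -0.0117, 0.138 and 0.169, and 2 of the 3 correlated best with their own number. The piericidin samples correlated with the same-numbered ones of control cells at 0.0318, 0.145 and 0.149 and of LbNOX cells at 0.0525, 0.221 and 0.159, where all 3 matched their own number best, a hint from the data and not from the design. With the replicate block 1447 genes were called, 824 higher and 623 lower, and the difference of the piericidin response, mitoLbNOX minus control, was called at 5181 genes, those from LbNOX and NDI1 cells at 68 and 301. Depth limits what can be said of genes near 0 counts under DMSO, such as Fgf21, Avil, Prg4 and Extl1.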
